A study of Mus musculus with 9 samples.

Results

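Genes of cholesterol synthesis, sterol sensing and sterol transport were followed in poly(A) RNA-seq of splenic naive CD4+ T cells, the resting precursors of helper and regulatory T cells. The set holds 29 named genes, chosen by function with earlier results of these data known and matched by symbol, of 55487 gene IDs measured. They comprise 18 enzymes of the mevalonate and sterol steps, 5 genes of the SREBP pathway and 6 genes of sterol transport, storage and LXR sensing. All 29 passed the filter on low counts, which left 13374 tested genes. The 9 libraries came from WT C57BL6/J mice in 3 groups of 3. Mice of the first group had no treatment, mice of another received anti-IL-1b neutralizing antibody, and mice of the last received MCC950, a small molecule that inhibits the NLRP3 inflammasome upstream of mature IL-1b. Each agent was given for 10 consecutive days. No transgene, Cre or vehicle is named for any group, and the labels give neither the age of the mice, the purification of the cells nor the mouse behind a library. The p-values therefore measure the spread between libraries, which may be technical.

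Cholesterol is built from acetyl-CoA through mevalonate, farnesyl diphosphate, squalene and lanosterol in the cytosol and endoplasmic reticulum. When sterols in the endoplasmic reticulum run low, SCAP escorts the SREBP transcription factors to the Golgi, where they are cut and released to switch on the synthesis genes; when sterols are plentiful, INSIG proteins hold SCAP back. LXR nuclear receptors respond to oxysterols and raise the genes that export cholesterol or limit its uptake. Resting T cells have a low demand for sterols, and dividing T cells raise synthesis to build membranes.

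Promoter sequences show where binding motifs of these regulators lie near 4 genes on which the results turn or in which the sterol motif was found. RefSeq promoters (GRCm38.p6, the build that mm10 also names) were at hand for 24 of the 29 genes, and the 250 bases before each start were searched on both strands. The printed stretches run 5′ to 3′ on the gene's strand, with motif letters in capitals. Hmgcs1 is shown for its sterol regulatory element core, Insig1 and Mylip as the pair with the lowest p-values among genes that fell, and Soat1 as the gene with the lowest p-value among those that rose.
Hmgcs1, chr13:119690104-119690320, plus strand: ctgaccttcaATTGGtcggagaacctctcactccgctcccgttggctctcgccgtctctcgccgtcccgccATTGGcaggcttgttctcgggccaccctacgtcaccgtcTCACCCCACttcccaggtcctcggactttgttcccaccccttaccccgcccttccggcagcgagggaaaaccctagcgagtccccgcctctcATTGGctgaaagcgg
Insig1, chr5:28071186-28071326, plus strand: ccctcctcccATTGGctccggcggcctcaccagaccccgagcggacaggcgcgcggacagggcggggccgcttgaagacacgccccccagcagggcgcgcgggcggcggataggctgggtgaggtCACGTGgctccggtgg
Mylip, chr13:45389542-45389689, plus strand: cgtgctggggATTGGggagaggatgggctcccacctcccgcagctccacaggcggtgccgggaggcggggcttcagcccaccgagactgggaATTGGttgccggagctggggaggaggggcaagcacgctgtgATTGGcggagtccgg
Soat1, chr1:156474344-156474368, minus strand: cgcaggaccaCCAATggcatcccgg

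The sterol regulatory element core, in the exact spelling TCACNCCAC, was found in the Hmgcs1 promoter alone, at position -137 from the RefSeq start. Other spellings of this element were not searched. The bases after that start were not found in the annotated transcripts of Hmgcs1, so its position is uncertain. Among all 32851 promoters of the table the sterol core was present in 1.05%, and among tested genes with a promoter in 1.17%. The CCAAT box, the site of the NF-Y factor that works beside SREBP, reads ATTGG when it lies on the other strand, as in the Hmgcs1, Insig1 and Mylip stretches. It was found in 20 of 24 genes of the set (83.3%), against 40.65% of the 9295 tested genes with a promoter and 33.85% of all promoters. The E-box CACGTG was found in 6 of 24 genes (25.0%), Insig1 and Abca1 among them, against 10.05% of tested genes and 6.02% of promoters. The LXR direct repeat is AGGTCA 2 times with 4 bases of any kind between. This repeat and the cAMP response element TGACGTCA were found in 0 of 24 genes. They were found in 0.02% and 1.55% of all promoters, and in 0.0% and 3.13% of tested genes with a promoter. No 2 of these motifs overlapped in the stretches shown. A match of letters is a description of the sequence and not a bound site.

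Levels in untreated cells are compared between genes as TPM, which is relative to transcript length. Nr1h2, which encodes LXRβ, stood highest at 152 ± 11.6 TPM (SD, n = 3), above 93.9% of tested genes. It was followed by Srebf2 at 113 ± 3.68, Srebf1 at 74.5 ± 5.76 and Insig1 at 69.2 ± 2.14 TPM. Sensors and regulators thus held the first 4 ranks, ahead of every enzyme. The 18 enzymes ranged from Fdps, the farnesyl diphosphate synthase, at 43.5 ± 3.55 TPM down to Hsd17b7 at 5.23 ± 1.33 TPM, which placed them above 74.8% to 31.3% of tested genes. Abca1, the cholesterol exporter of the plasma membrane, stood at 6.34 ± 0.428 TPM, next to the lowest. Of 28 neighbouring pairs in this order 23 had overlapping libraries, so the order is firm only at the steps below Nr1h2, Srebf2, Insig1, Abcg1 and Nsdhl.

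**Figure D1:**
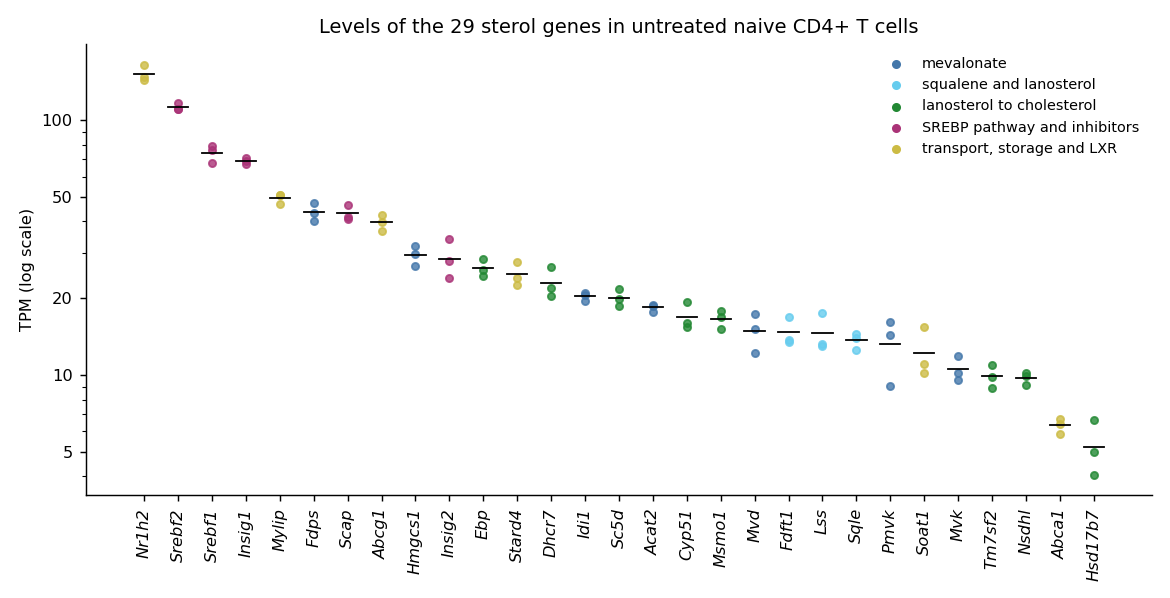
TPM on a log scale of the 29 sterol genes in the 3 untreated libraries, in order of the mean; points are libraries, black lines are means and colours are roles. Nr1h2 and Srebf2 stand apart at the top with 152 and 113 TPM, while most enzymes lie close together with overlapping points.

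Several sets of other genes moved with treatment. All 9 markers of naive CD4+ T cells were expressed, and their summed CPM, reads scaled to a common TMM-adjusted library total, was 6467 to 6561 in untreated, 6382 to 6392 in anti-IL-1b and 5837 to 5861 in MCC950 libraries. Of these 9, 3 were higher and 3 lower with the antibody, and 2 higher and 5 lower with MCC950. Of all tested genes, 15.4% were higher and 18.5% lower with the antibody, and 17.7% and 19.1% with MCC950. These shares stand beside each count of called markers here and below. The 13 B cell markers all rose with both agents, from a summed 20.1 to 26.9 CPM to 104 to 111 and 113 to 136 CPM, with Cd79a at 1.77, 6.49 and 5.96 CPM. Of 12 neutrophil markers 8 were at 0 in every untreated library; their sum rose from 1.1 to 1.29 CPM to 29.8 to 31.6 and 15.7 to 17.9 CPM. Sums of 9 cytotoxic markers (63.0 to 68.4, 90.3 to 97.6 and 93.7 to 97.5 CPM), 10 monocyte markers (3.82 to 5.79, 12.9 to 14.6 and 12.6 to 15.1) and 7 red cell markers (0.122 to 0.445, 4.38 to 5 and 6.13 to 10.3) were also higher with both agents. By gene, 6 cytotoxic, 4 monocyte and 4 red cell markers passed the count filter. The red cell markers summed to at most 0.445 CPM in untreated libraries and passed it only through treated libraries. Their counts below are therefore no separate support for a rise. With the antibody, 3 cytotoxic markers were higher and 1 lower, 3 monocyte markers higher and 1 lower, and 4 red cell markers higher. With MCC950, 3, 3 and 4 were higher and 0 lower. The natural killer cell genes Klrb1c and Ncr1 were at 0 in untreated libraries. The 15 heat and dissociation stress genes, such as Fos and Hspa1a, all fell with both, from a summed 25743 to 26076 CPM to 5951 to 6095 and 6965 to 7145 CPM. The 10 cell cycle genes summed to 331 to 333, 244 to 249 and 258 to 267 CPM, while by gene 2 were higher and 1 lower with each agent and their median log2 fold change was 0.41 and 0.27, opposite in sign to the change of the sum. These sets moved together with every sterol gene result below that separates treated from untreated cells, and their part in those results was not tested. In bulk RNA, fewer cells of a type and less RNA per cell cannot be told apart.

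With anti-IL-1b against untreated, 12 of the 29 sterol genes (41.4%) passed an adjusted p of 0.05 in edgeR's quasi-likelihood test, against a background of 34.0% of all tested genes. Of these 5 were higher (17.2%, background 15.4%) and 7 lower (24.1%, background 18.5%). In all 12 the 3 treated libraries lay beyond the 3 untreated ones, and 32.2% of all tested genes had both a call and such a separation. With MCC950 against untreated, 19 of 29 passed (65.5%), against a background of 36.8%. Of these 13 were higher (44.8%, background 17.7%) and 6 lower (20.7%, background 19.1%), and 17 had libraries that did not overlap, where 35.2% of all tested genes had both. Both comparisons use the same 3 untreated libraries, so they are not independent of each other. The median log2 fold change of the 29 genes was 0.04 with the antibody and 0.15 with MCC950, where the medians of all genes were 0.00 and 0.01.

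The genes past the threshold with both agents numbered 11, each in the same direction. Tm7sf2, Dhcr7, Insig2, Stard4 and Soat1 were higher, and Srebf2, Insig1, Nr1h2, Abca1, Abcg1 and Mylip were lower. Only Idi1 passed with the antibody alone, and 8 genes passed with MCC950 alone: Acat2, Hmgcs1, Mvk, Mvd, Fdps, Cyp51, Ebp and Scap. Pmvk, Fdft1, Sqle, Lss, Msmo1, Nsdhl, Hsd17b7, Sc5d and Srebf1 passed with neither. Called changes were small: Insig1 and Tm7sf2 were the 2 that reached 1.5-fold with either agent. The split of calls depended on scaling. For the antibody, the 5 higher and 7 lower became 9 and 4 with upper-quartile scaling and 14 and 4 with library totals alone. They became 6 and 3 on log2(TPM + 1). Among all genes, 2066 higher and 2479 lower became 2687 and 1941, 3929 and 1344, and 2552 and 837 under the same settings. For MCC950, 13 and 6 became 14 and 5, 18 and 4, and 9 and 3. All genes went from 2369 and 2552 with MCC950 to 2859 and 2211, 4009 and 1587, and 2115 and 1070. Scaling to library totals shifted the all-gene median by 0.127 and 0.113 (log2) in the comparisons with the antibody and with MCC950, and TPM moved it by 0.137 and 0.082; relative to all genes the members' median stood at 0.03 with the antibody under TMM and under library totals.

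**Figure D2:**
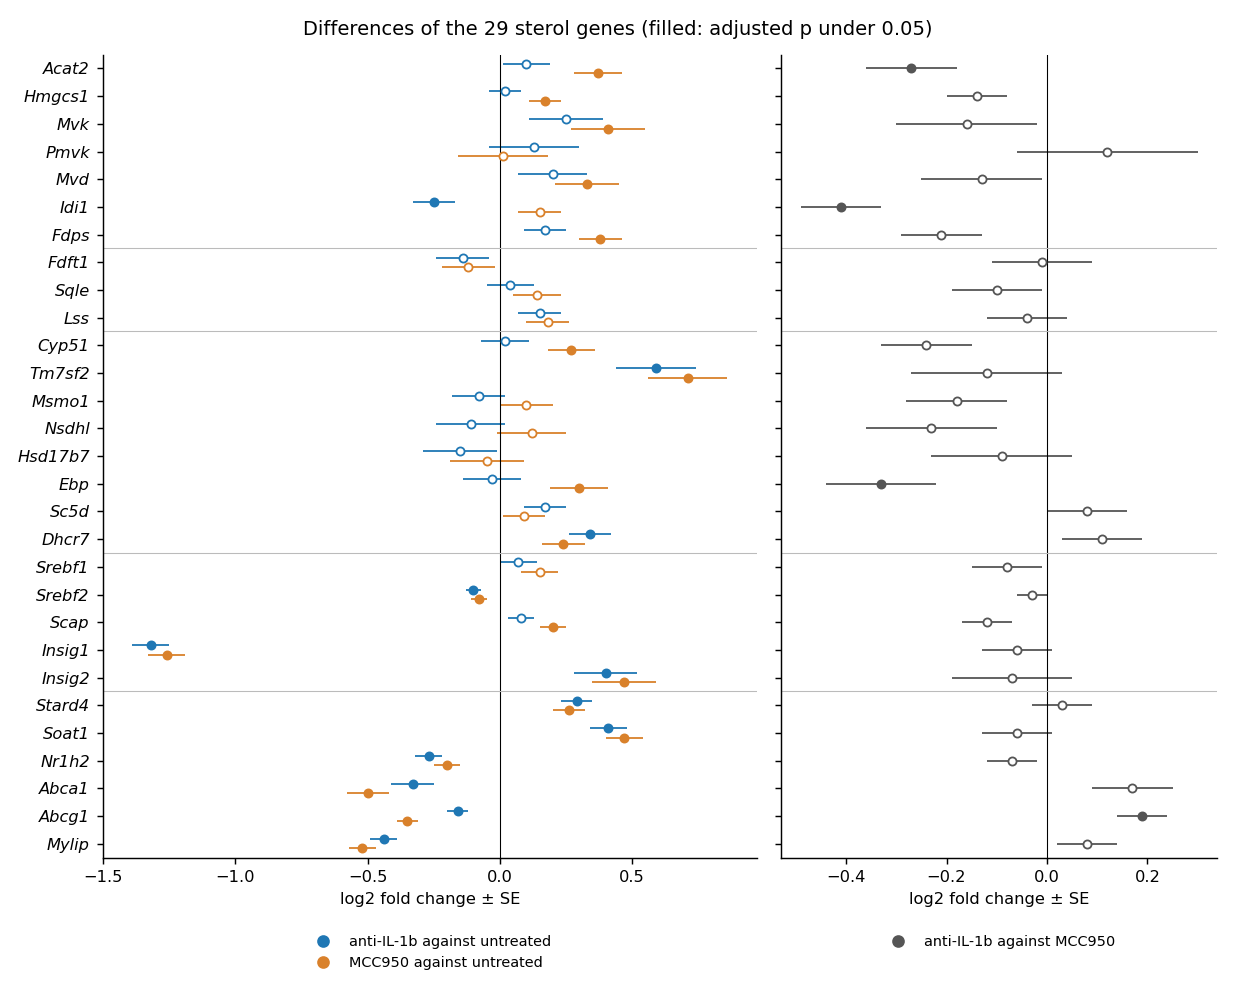
Log2 fold change ± SE of each of the 29 genes, in pathway order from Acat2 to Mylip with grey lines between roles; the left panel shows each agent against untreated and the right panel the antibody against MCC950, with filled points past an adjusted p of 0.05. Insig1 lies far to the left with both agents, and most enzymes lie further right with MCC950 than with the antibody.

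Among the sterol sensors, Insig1 had the largest change of the set. INSIG1 retains the SCAP-SREBP complex in the endoplasmic reticulum, and its gene (chromosome 5, 28071363 to 28078662) is itself switched on by SREBP. Its CPM were 98.4, 108 and 98.4 in untreated libraries, 38.0, 46.4 and 37.7 with the antibody and 40.8, 43.8 and 42.7 with MCC950. All 6 treated libraries lay far below the 3 untreated ones, and the treated groups overlapped. The log2 fold changes were -1.32 ± 0.07 (SE, adjusted p = 1.17e-18) and -1.26 ± 0.07 (adjusted p = 3.35e-18), so that its level fell by 59.9% and fell by 58.2%. Between the agents Insig1 differed by -0.06 ± 0.07 (adjusted p = 0.682). On this gene the call held under all 19 alternative settings in both comparisons.

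Its paralogue Insig2, which encodes the other INSIG protein (chromosome 1, 121304353 to 121332589), moved the other way at a lower level. Its CPM were 16, 15.3 and 12.1 in untreated cells, 19.4, 20.1 and 17.5 with the antibody and 20, 20.8 and 19.1 with MCC950. Every treated library exceeded every untreated one, with the lowest untreated value in library 3. Insig2 changed by 0.40 ± 0.12 on the log2 scale with the antibody (adjusted p = 0.01) and by 0.47 ± 0.12 with MCC950 (adjusted p = 0.00209). Without untreated library 3 the antibody value became 0.28 (adjusted p = 0.0984), and without anti-IL-1b library 2 it became 0.35 (adjusted p = 0.0502). On TPM neither comparison passed, with adjusted p up to 0.929 and 0.739; the transcript length that RSEM weighted for Insig2 averaged 908 bases in untreated, 1216 in anti-IL-1b and 1165 in MCC950 libraries.

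Scap encodes the escort protein that carries SREBPs to the Golgi. Its CPM were 98.4, 101 and 100 in untreated cells, 106, 108 and 104 with the antibody and 116, 109 and 120 with MCC950. Treated libraries lay above untreated ones in both groups, but the rise passed with MCC950 alone, at 0.20 ± 0.05 (adjusted p = 0.000827) against 0.08 ± 0.05 (adjusted p = 0.209) with the antibody; the latter passed with upper-quartile scaling (0.13, adjusted p = 0.0346) and library totals (0.21, adjusted p = 0.000672). The direct difference between the agents was -0.12 ± 0.05 (adjusted p = 0.0944). Srebf2 encodes the SREBP that mainly drives cholesterol genes. Its CPM were 345, 342 and 357 in untreated cells, 323, 327 and 322 with the antibody and 335, 325 and 330 with MCC950. Both treated groups lay below the untreated one and overlapped each other; the differences from untreated were small, at -0.10 ± 0.03 (adjusted p = 0.00883) and -0.08 ± 0.03 (adjusted p = 0.0495). They turned positive with library totals alone, at 0.02 and 0.04, and on TPM with the antibody, at 0.01; the antibody call was also lost with upper-quartile scaling (-0.05) and without untreated library 3 (-0.09, adjusted p = 0.0574). For MCC950 the Srebf2 call was lost under 14 of 19 settings, so it rests at the threshold. Srebf1, whose products include the SREBP of fatty acid genes, stood at 117 ± 10.2, 123 ± 11.6 and 130 ± 6.74 CPM and passed in neither comparison; on TPM, where RSEM's weighted length fell from 2333 to 1879 bases with the antibody, it passed as higher with that agent. With MCC950, Srebf1 passed under 5 of 19 settings: library totals, the filter of 1 count, the fit on 6 libraries, and without untreated library 3 or anti-IL-1b library 3 (adjusted p from 0.00521 to 0.0206).

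Of the 6 genes of sterol transport, storage and LXR sensing, 2 were higher and 4 lower with each agent under TMM scaling, where 15.4% and 18.5% of all genes were higher and lower with the antibody and 17.7% and 19.1% with MCC950. Soat1 (chromosome 1, 156424525 to 156474331), which encodes the enzyme that esterifies cholesterol for storage in lipid droplets, rose. Its CPM were 36.9, 37.5 and 37.8 in untreated libraries, 48.7, 49.9 and 50.6 with the antibody and 49.3, 52.8 and 53.4 with MCC950. The untreated libraries were tight and well below all others. The log2 fold changes were 0.41 ± 0.07 (adjusted p = 9.43e-06) and 0.47 ± 0.07 (adjusted p = 5.98e-07), and both calls held under all 19 settings. Stard4, which encodes a soluble carrier that moves cholesterol between membranes, rose too. Its CPM were 61.7, 65.8 and 64.8 in untreated cells, 78.6, 79.3 and 77.6 with the antibody and 78.2, 76.2 and 76.7 with MCC950. The treated groups overlapped each other and lay above every untreated library, at 0.29 ± 0.06 (adjusted p = 7.76e-05) and 0.26 ± 0.06 (adjusted p = 0.000249); on TPM the antibody call was lost, with an adjusted p up to 0.0671.

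The LXR genes of this group fell. Mylip (chromosome 13, 45389742 to 45412022) encodes a ubiquitin ligase that LXR induces and that limits the uptake of lipoprotein cholesterol. Its CPM were 108, 108 and 99.4 in untreated cells, 78.0, 76.5 and 77.8 with the antibody and 72.3, 75.6 and 71.5 with MCC950. All 6 treated libraries lay below the lowest untreated one. The log2 fold changes were -0.44 ± 0.05 (adjusted p = 1.51e-08) and -0.52 ± 0.05 (adjusted p = 2.17e-10), under all 19 settings with the same sign and call. RSEM gave Mylip 1 constant length of 3065 bases in every group. Over the 19 settings its log2 fold change still ranged from -0.48 to -0.27 with the antibody and from -0.56 to -0.41 with MCC950.

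Abcg1 (chromosome 17, 31057675 to 31117988) and Abca1 (chromosome 4, 53030787 to 53159895) encode cholesterol exporters and are LXR target genes. The CPM of Abcg1 were 141, 152 and 140 in untreated cells, 131, 131 and 128 with the antibody and 110, 118 and 113 with MCC950. The 3 groups formed separate steps, with MCC950 lowest. Its log2 fold changes were -0.16 ± 0.04 (adjusted p = 0.00565) and -0.35 ± 0.04 (adjusted p = 4.17e-08). On TPM the antibody value for Abcg1 turned to 0.10, it missed the threshold with upper-quartile scaling (-0.11) and library totals (-0.03), and without untreated library 2 it was -0.12 (adjusted p = 0.0692). The MCC950 call of Abcg1 was lost on TPM (-0.23, adjusted p up to 0.0871). The CPM of Abca1 were 43.9, 40.9 and 41.0 in untreated cells, 32.1, 33.8 and 34.0 with the antibody and 30.1, 28.6 and 30.0 with MCC950. Again the 3 groups did not overlap, at -0.33 ± 0.08 (adjusted p = 0.00082) and -0.50 ± 0.08 (adjusted p = 1.64e-06). On TPM neither Abca1 call held, with adjusted p up to 0.332 and 0.111.

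Nr1h2 itself, the LXRβ receptor gene (chromosome 7, 44549616 to 44553951), had CPM of 131, 127 and 139 in untreated cells, 117, 109 and 102 with the antibody and 115, 117 and 114 with MCC950. All treated libraries were below all untreated ones. The log2 fold changes were -0.27 ± 0.05 (adjusted p = 2.65e-05) and -0.20 ± 0.05 (adjusted p = 0.00103), the latter lost with library totals alone (adjusted p = 0.155).

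**Figure D3:**
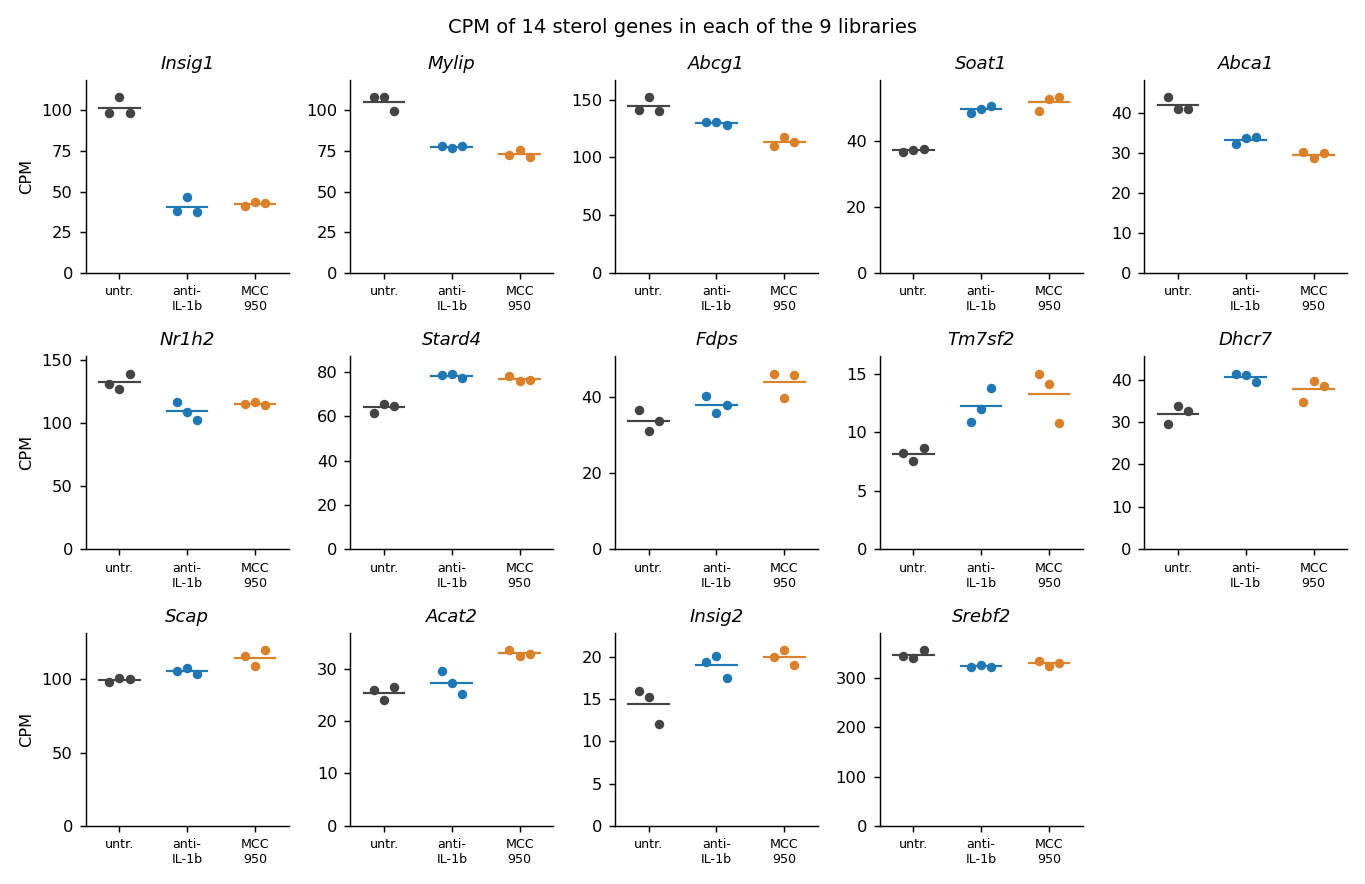
CPM, on axes that start at 0, of 14 genes whose libraries stood apart from the untreated ones with at least 1 agent. Fdps and Acat2 overlapped untreated with the antibody. Points are libraries, lines are group means, and groups are untreated, anti-IL-1b and MCC950. Insig1 drops from 98.4 to 108 CPM in untreated libraries to at most 46.4 CPM in treated ones, while Abcg1 steps down from untreated to anti-IL-1b to MCC950.

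Among the enzymes of the pathway, calls with MCC950 were all rises. With that agent, 9 of 18 enzymes were higher and 0 lower (50% higher, where 17.7% of all genes were), with a median log2 fold change of 0.18. Of these rises, Acat2, Fdps and Tm7sf2 held under all 19 settings. Without MCC950 library 3, Hmgcs1, Mvk, Mvd, Ebp and Dhcr7 missed the threshold, and 2044 of all genes were higher. Without MCC950 library 2, Mvd, Cyp51, Ebp and Dhcr7 missed it. On TPM, Hmgcs1, Mvd, Cyp51 and Ebp missed it and Msmo1 passed. With the antibody, 2 were higher (11.1%, background 15.4%) and 1 lower (5.56%, background 18.5%), with a median of 0.07. Both shares were under those of all genes. The antibody's 2 and 1 became 5 and 0 with upper-quartile scaling, 9 and 0 with library totals and 4 and 0 on TPM. All genes then had 2687 higher and 1941 lower, 3929 and 1344, and 2552 and 837. For MCC950, 9 and 0 became 10 and 0 with upper-quartile scaling and 13 and 0 with library totals. Of all genes, 2859 and 4009 were then higher with MCC950. In the MCC950 libraries the 7 mevalonate genes summed to 225 to 242 CPM, above 191 to 198 CPM untreated and 198 to 207 CPM with the antibody.

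Of the mevalonate genes, 5 of 7 passed as higher with MCC950, where 17.7% of all genes did, and 3 of 7 on log2(TPM + 1). Fdps makes farnesyl diphosphate, the branch point between sterols and prenylated proteins. Its CPM were 36.4, 31.0 and 33.6 in untreated cells, 40.1, 35.8 and 37.8 with the antibody and 46.0, 39.6 and 45.6 with MCC950. The antibody group overlapped the untreated group and the MCC950 group lay above it, at 0.17 ± 0.08 (adjusted p = 0.103) and 0.38 ± 0.08 (adjusted p = 0.000227). The antibody value for Fdps passed without untreated library 1 (0.24, adjusted p = 0.0404), with upper-quartile scaling (0.22, adjusted p = 0.0321), with library totals (0.30, adjusted p = 0.00324) and on TPM (0.32, adjusted p = 0.0255). Acat2, the cytosolic thiolase that joins acetyl-CoA units in the first step, had CPM of 26.0, 24.0 and 26.5 in untreated cells, 29.6, 27.3 and 25.3 with the antibody and 33.6, 32.5 and 32.9 with MCC950. Only the MCC950 libraries stood clear of the untreated ones, at 0.37 ± 0.09 (adjusted p = 0.000933) against 0.10 ± 0.09 (adjusted p = 0.410). Acat2 shares 39.1% of its 50-base stretches with other genes, most with Acat3, and its counts were fractional in every library, so the split of reads between copies makes its value uncertain. Fdps shares 26.2%, most with Gm43738, a gene model on the same strand that was given a mean count of 0; the counts of Fdps were whole in all libraries.

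The other 3 rises with MCC950 were lost when single libraries were left out. Mvk, the mevalonate kinase gene, was at 0.41 ± 0.14 (adjusted p = 0.0148), and at 0.38 (adjusted p = 0.058) without MCC950 library 1 or without MCC950 library 3. Mvd, the mevalonate diphosphate decarboxylase gene, was at 0.33 ± 0.12 (adjusted p = 0.0324) with overlapping libraries, and missed the threshold without untreated library 2 (0.21), untreated library 3 (0.35), MCC950 library 2 (0.29) or MCC950 library 3 (0.30). Hmgcs1, the synthase gene that makes HMG-CoA and carries the sterol element printed above, was at 0.17 ± 0.06 (adjusted p = 0.0277), with 59.2 to 62.1 CPM untreated and 66.4 to 71.4 CPM with MCC950. It missed the threshold without untreated library 1 (0.15), untreated library 2 (0.17) or MCC950 library 3 (0.14). On TPM neither Mvd nor Hmgcs1 passed, with adjusted p up to 0.0622 and 0.181.

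Idi1, which isomerizes the activated isoprene unit, was the enzyme that fell with the antibody. Its CPM were 40.5, 38.6 and 36.9 in untreated cells, 30.1, 32.0 and 35.3 with the antibody and 40.5, 42.0 and 46.3 with MCC950. The antibody group lay below both others. Against untreated it was at -0.25 ± 0.08 (adjusted p = 0.0136), lost without untreated library 1 (-0.21, adjusted p = 0.0751) or anti-IL-1b library 1 (-0.20, adjusted p = 0.0903) and under upper-quartile scaling, library totals and TPM. With MCC950 it was at 0.15 ± 0.08 (adjusted p = 0.126), which passed with library totals (0.27, adjusted p = 0.00565). Idi1 shares 17.7% of its 50-base stretches with other genes. Pmvk, the phosphomevalonate kinase gene, passed in neither comparison, at 0.13 ± 0.17 and 0.01 ± 0.17.

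None of the 3 genes of the squalene and lanosterol steps passed with either agent under TMM scaling. Lss, the cyclase gene that closes the ring system, came nearest, at 0.15 ± 0.08 (adjusted p = 0.147) and 0.18 ± 0.08 (adjusted p = 0.0572). It passed in both comparisons with upper-quartile scaling (adjusted p = 0.0453 and 0.0211) and library totals (adjusted p = 0.00442 and 0.00174), and with MCC950 without untreated library 1 (adjusted p = 0.0452). Sqle, the epoxidase gene of a rate-limiting step, stood at 27.0 ± 1.97 CPM untreated, 27.8 ± 1.41 with the antibody and 29.8 ± 2.73 with MCC950, a spread that overlapped throughout; with library totals it passed with MCC950 (0.25, adjusted p = 0.0263). Fdft1, the squalene synthase gene, was at -0.14 ± 0.10 and -0.12 ± 0.10 and overlaps 774 exon bases of Ctsb on the opposite strand.

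In the steps from lanosterol to cholesterol, 2 of 8 genes were higher with the antibody and 4 of 8 with MCC950, where 15.4% and 17.7% of all genes were; 0 of 8 were lower with either. The median log2 fold change of the 8 was 0.00 with the antibody and 0.18 with MCC950. Tm7sf2 encodes a sterol reductase of the endoplasmic reticulum that acts after the demethylation of lanosterol. Its CPM were 8.23, 7.57 and 8.63 in untreated cells, 10.9, 12 and 13.8 with the antibody and 15, 14.1 and 10.8 with MCC950. All 6 treated libraries exceeded the untreated ones, and the treated groups overlapped. The log2 fold changes were 0.59 ± 0.15 (adjusted p = 0.00263) and 0.71 ± 0.15 (adjusted p = 0.000267), both held under all 19 settings. Tm7sf2 shares 532 exon bases on the same strand with Vps51, whose mean count of 1123 was above the 195 of Tm7sf2, so reads of the neighbour may be counted in it.

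Dhcr7 encodes the reductase of the last step to cholesterol. Its CPM were 29.5, 33.7 and 32.7 in untreated cells, 41.4, 41.1 and 39.4 with the antibody and 34.8, 39.8 and 38.6 with MCC950. Both treated groups lay above the untreated group, and the antibody group was tight. On the log2 scale these rises were 0.34 ± 0.08 (adjusted p = 0.000704) and 0.24 ± 0.08 (adjusted p = 0.0163). The MCC950 call was lost without untreated library 1 (0.19), MCC950 library 2 (0.20) or MCC950 library 3 (0.23). Cyp51, the lanosterol demethylase gene, was at 0.27 ± 0.09 (adjusted p = 0.0163) with MCC950, with libraries that overlapped the untreated ones, and at 0.02 ± 0.09 with the antibody; its MCC950 value was 0.16 without untreated library 3 and 0.18 without MCC950 library 2, past the threshold in neither. Ebp, the sterol isomerase gene, was at 0.30 ± 0.11 (adjusted p = 0.0279) with MCC950 and at -0.03 ± 0.11 with the antibody; without untreated library 3 (0.27), MCC950 library 2 (0.26) or MCC950 library 3 (0.31) the call was lost. On TPM neither Cyp51 nor Ebp passed with MCC950, with adjusted p up to 0.107 and 0.0806.

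The other 4 genes of these steps passed with neither agent under TMM scaling with all libraries. Msmo1, the sterol methyl oxidase gene, was at -0.08 ± 0.10 with the antibody and 0.10 ± 0.10 with MCC950, the latter past the threshold on TPM (0.33, adjusted p = 0.0289). Nsdhl and Hsd17b7, which act beside it in removing the methyl groups at carbon 4, were at -0.11 ± 0.13 and 0.12 ± 0.13, and at -0.15 ± 0.14 and -0.05 ± 0.14. Sc5d, the desaturase gene before Dhcr7, was at 0.17 ± 0.08 (adjusted p = 0.0915) and 0.09 ± 0.08. It passed with the antibody under upper-quartile scaling (adjusted p = 0.0251), library totals (adjusted p = 0.00209) and without anti-IL-1b library 3 (adjusted p = 0.0385), and with MCC950 under library totals (adjusted p = 0.0287).

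Set against each other, the agents differed in 4 of the 29 genes (13.8%), against 13.2% of all genes. Abcg1 was higher with the antibody (3.45% of the set, background 6.13%), and Acat2, Idi1 and Ebp were lower with it (10.3% of the set, background 7.11%). In all 4 the libraries of the 2 agents did not overlap; 12.6% of all tested genes had both a call and groups that did not overlap. Idi1 differed by -0.41 ± 0.08 (adjusted p = 0.000363), Abcg1 by 0.19 ± 0.05 (adjusted p = 0.0027), Ebp by -0.33 ± 0.11 (adjusted p = 0.0383) and Acat2 by -0.27 ± 0.09 (adjusted p = 0.0408). Of the 18 enzymes, 15 had a lower mean CPM with the antibody than with MCC950, and their median difference was -0.14, where that of all genes was 0.00. Most of those differences did not pass: the 25 genes without a call ranged from -0.24 to 0.17. Cyp51, at -0.24, passed under 7 of 19 settings, with an adjusted p down to 0.0181. Neither Ebp nor Acat2 passed when any MCC950 library was left out, at -0.35 to -0.30 and -0.28 to -0.25, nor without anti-IL-1b library 3 (-0.23 and -0.22). Ebp was also lost without anti-IL-1b library 1 (-0.35) and Acat2 without anti-IL-1b library 2 (-0.27), with upper-quartile scaling or library totals (-0.25) and with the filter of 1 count (-0.27). On log2(TPM + 1) limma called 0 of the 29 at an adjusted p of 0.05, where the edgeR test called 4. Of all genes it called 581, where edgeR called 1771.

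**Figure D4:**
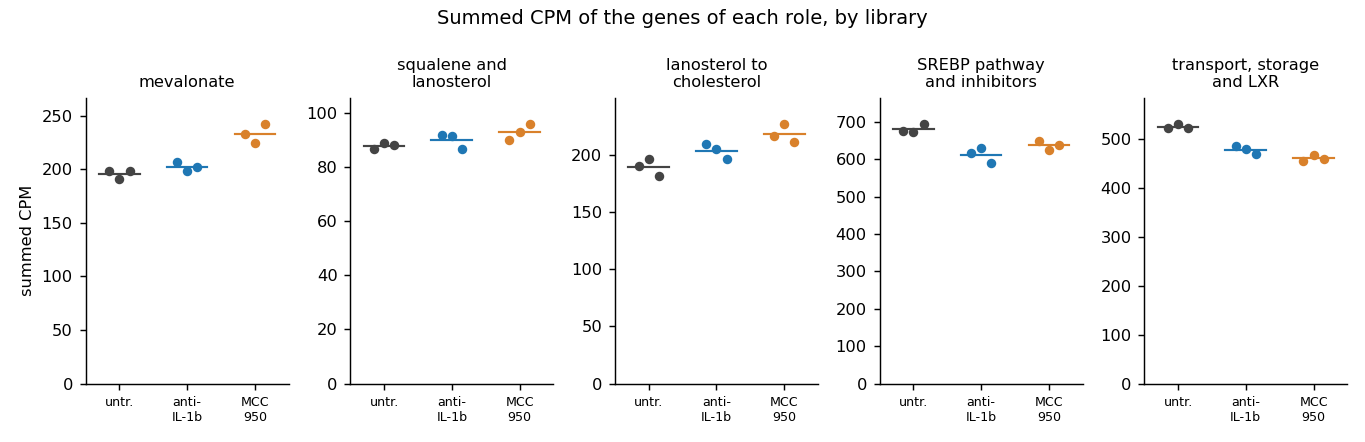
Summed CPM of the genes of each role in each library, with group means as lines and axes that start at 0. Mevalonate genes reach 225 to 242 CPM with MCC950 against 191 to 198 CPM untreated, whereas genes of transport, storage and LXR go from 522 to 531 CPM untreated down to 470 to 485 and 455 to 468 CPM.

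Further lipid genes were read as 5 lists of 66 genes chosen by function, also with earlier results of these data known. Under TMM scaling the counts below stand against 15.4% of all genes higher and 18.5% lower with the antibody, and 17.7% and 19.1% with MCC950. With library totals, 3929 of 13374 genes were higher and 1344 lower with the antibody, and 4009 and 1587 with MCC950. Of 13 tested fatty acid genes under SREBP control, 5 were higher and 2 lower with the antibody and 5 and 3 with MCC950, which became 7 and 1 with library totals for the latter. Fasn, the fatty acid synthase gene, rose from 215 ± 7.16 to 283 ± 13.7 and 280 ± 6.45 CPM (0.40 ± 0.04, adjusted p = 1.67e-11, and 0.38 ± 0.04, adjusted p = 3.95e-11). The desaturase genes rose too, Scd2 from 58.9 ± 1.87 to 84.4 ± 1.14 and 79.9 ± 4.54 CPM and Scd1, near the lower limit, from 0.820 ± 0.188 to 4.10 ± 1.11 and 3.64 ± 0.900 CPM. Not all of this list rose: Mid1ip1, which encodes a regulator of fatty acid synthesis and was picked after its values were seen, fell from 19.1 ± 1.52 to 11.7 ± 0.629 and 10.9 ± 0.183 CPM, Elovl5 was also lower with both agents, and Lpin1 was lower with MCC950.

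Of 10 genes of SREBP proteolysis and sterol-dependent degradation, 1 was higher and 1 lower with the antibody and 2 and 3 with MCC950, the latter 3 and 1 with library totals. The share called was 2 of 10 with the antibody, where 34.0% of all genes were called, and 5 of 10 with MCC950, where 36.8% were. Mbtps1, the site-1 protease gene that cuts SREBPs, was at 0.23 ± 0.04 and 0.14 ± 0.04 (adjusted p = 2.69e-06 and 0.003). Pgrmc1, a haem-binding membrane protein gene, was at -0.40 ± 0.08 and -0.53 ± 0.08 (adjusted p = 6.04e-05 and 3.51e-07), and Erlin2, of the degradation complex, passed with MCC950 at 0.43 ± 0.10 (adjusted p = 0.000688).

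In the next pair of lists at most 5 of 15 genes were called with either agent under TMM scaling, a share below the 34.0% and 36.8% of all genes. Of 15 genes that use isoprenoids outside sterols, 1 was higher and 2 lower with the antibody and 3 and 2 with MCC950, which turned to 5 and 0 and 5 and 1 with library totals. Zmpste24, a protease gene of prenylated proteins, fell (-0.28 ± 0.08 and -0.32 ± 0.08, adjusted p = 0.00523 and 0.00115), Fnta, of the farnesyltransferase, rose (0.26 ± 0.08 and 0.19 ± 0.07, adjusted p = 0.00532 and 0.0397), and Coq2, of ubiquinone synthesis, passed with MCC950 (0.32 ± 0.08, adjusted p = 0.0013). Of 15 genes of lysosomal and contact-site sterol transport, 0 were higher and 3 lower with the antibody and 1 and 3 with MCC950, which turned to 5 and 0 and 3 and 1 with library totals. Osbpl9, an oxysterol-binding protein gene, was at -0.20 ± 0.04 and -0.35 ± 0.04 (adjusted p = 0.00011 and 2.25e-09), Npc2, a lysosomal cholesterol carrier gene, at -0.14 ± 0.03 with the antibody (adjusted p = 0.000208), and Gramd1a at 0.11 ± 0.02 with MCC950 (adjusted p = 0.000422).

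Among 7 tested of 11 genes of oxysterols and LXR, 2 were higher and 1 lower with the antibody and 3 and 1 with MCC950. Gpr183, the receptor gene through which lymphocytes follow an oxysterol gradient, fell from 232 ± 4.54 to 76.1 ± 0.394 and 83.2 ± 3.94 CPM (-1.61 ± 0.04, adjusted p = 2.31e-28, and -1.48 ± 0.04, adjusted p = 2.42e-27). Arl4c, a small GTPase gene that LXR induces in other cells, rose (0.23 ± 0.03, adjusted p = 1.03e-08, and 0.42 ± 0.03, adjusted p = 4.58e-16), as did Lpcat3, a phospholipid acyltransferase gene under LXR (0.27 ± 0.08, adjusted p = 0.0117, and 0.22 ± 0.08, adjusted p = 0.0372). Under TMM scaling Arl4c and Lpcat3 moved opposite to Abca1, Abcg1 and Mylip in both comparisons; on TPM Abcg1 turned positive with the antibody.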

How the data were processed

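Poly(A) RNA-seq of 9 libraries, 3 per group, was grouped by sample titles alone. Per the submitters' processing notes, reads were handled with STAR and RSEM on mm10, with versions not given in the sources used here. The deposited expected counts are RSEM's estimated counts per gene, in which a read that fits several genes is divided among them, per the file headers. Per the same headers, deposited TPM is scaled by effective length; deposited FPKM values were not used. The sources used here do not state whether counting used strand, so genes with antisense or same-strand overlap are uncertain. Of 55487 gene IDs, 99.4% had a GENCODE M21 symbol (GRCm38). Library totals were 14775375 to 21394797 expected counts.

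Expected counts were rounded and fitted with edgeR 4.0.16 (R 4.3.3): TMM, filterByExpr, robust quasi-likelihood fit of 3 group means over 9 libraries, two-sided tests, Benjamini-Hochberg adjustment over 13374 genes, threshold 0.05. SE is the log2 fold change divided by the root of F. The test was also run on simulated counts, with equal numbers of genes raised and lowered and the same spread for all genes. That run does not bear on how the calls depend on scaling. Alternatives, 19 in all, were RLE, upper-quartile or no scaling factors, a filter of 1 count, DESeq2 1.42.0, limma-trend (limma 3.58.1) on log2(TPM + 1) and log2(TPM + 0.1) for genes of TPM 1 in 3 libraries, a replicate block, fits on 6 libraries, a threshold of 0.10 and leaving out each library. The threshold of 0.10 cannot lose a call made at 0.05, so it bears only on genes not called. The sterol genes and all lists were chosen with earlier results of these data known. Values in every library are given for 14 genes and for Idi1, added after its values were seen. The 14 had the smallest p among genes called and not overlapping untreated with at least 1 agent. At most 3 genes are named from each further pathway list, by smallest p, and at most 2 from each marker list, as examples. Outside this rule, Mid1ip1, Elovl5 and Lpin1 of the fatty acid list are named because they were lower. Genes outside these lists were not analysed here.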

Additional observations from a re-analysis of the deposited data

How the results depend on the processing

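Calls among the 29 sterol genes held under all 19 alternatives for 6 of 12 genes with the antibody (Tm7sf2, Dhcr7, Insig1, Soat1, Nr1h2, Mylip), for 8 of 19 with MCC950 (Acat2, Fdps, Tm7sf2, Scap, Insig1, Stard4, Soat1, Mylip) and for 0 of 4 between the agents. Limma on log2(TPM + 1) and on log2(TPM + 0.1) called 12 of the 29 with MCC950 by either, 0 between the agents by either, and 3185 and 3191 of all genes with MCC950 and 581 and 582 between the agents. An adjusted p of 0.10 gave 7 of the 29 between the agents, and 2347 of all 13374 genes. Direction turned for Srebf2 with the antibody (0.02 with library totals, 0.01 on both TPM scales) and with MCC950 (0.04 with library totals), and for Abcg1 with the antibody (0.10 on both TPM scales); the cause was not tested. Leaving out 1 library gave 10 to 13 genes with the antibody, 13 to 20 with MCC950 and 2 to 5 between the agents. Between the agents the lowest came without anti-IL-1b library 3 or MCC950 library 1. Of all genes, 3954 to 4498, 4201 to 5021 and 1246 to 1763 were called in these fits. Libraries of the same number correlated in their deviations at -0.01 to 0.063, and those of different numbers at -0.057 to 0.025. The numbers were not taken as pairs in the main fit. A replicate block called 12, 18 and 5 genes of the set, and 4483, 4855 and 1704 of all genes. Counts per library went down to 106, for Pmvk.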
